A study of Mus musculus with 19 samples.

Results

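Chromatin remodellers are enzymes that use ATP to slide, evict or exchange nucleosomes. The 48 mouse genes described here code for subunits of the SWI/SNF, ISWI, CHD and INO80 families, with 3 related SNF2-like enzymes, out of 21883 protein-coding genes on chromosomes 1 to 19, X and Y. They were listed by name for what their proteins do, with earlier results of these data known. All 48 were found in the RefSeq annotation of mm10. CBFA2T2, a corepressor of the MTG (ETO) family, had been mapped by ChIP-seq in NE-4C, a neural stem cell line of mouse brain origin that lacks p53. In all cells used H3f3a, which codes for the replacement histone H3.3, had been knocked out as well. HA-tagged H3.3 was then put back by stable expression, as the wild-type protein (H3.3WT) or as H3.3K27M, in which methionine replaces lysine 27. Each genotype is represented by 1 CBFA2T2 library, called against input, with 6920 peaks on the H3.3WT list and 8272 on the H3.3K27M list. The names of the deposited peaks carry the code Z3q where the labels give CBFA2T2, and the labels were followed for what was precipitated. The labels do not say whether a line is 1 clone. A library from cells without Cbfa2t2, which would show the antibody's background, was not analysed here. Without replicates no difference between genotypes could be tested, and depth is unknown because the peak lists carry no read counts.

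The families differ in what they do to a nucleosome. SWI/SNF complexes slide and eject nucleosomes around the ATPase SMARCA4 or SMARCA2, and in the nervous system subunits are exchanged as progenitors become neurons. ISWI enzymes space nucleosomes evenly. CHD enzymes share a pair of chromodomains, and CHD3, CHD4 and CHD5 belong to the NuRD corepressor complex. INO80-family enzymes slide nucleosomes and exchange the histone variant H2A.Z.

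A gene counted as marked when the summit of a peak, its highest point, lay inside the gene or within 1 kb of it. The fold of a peak is the authors' fold enrichment, which sets ChIP reads at the summit against those expected locally, and −log10 q is the peak caller's significance. Both belong to 1 library and carry no replicate error. A start site is the transcript start in RefSeq's promoter windows of 300 bases, 250 before the start and 50 from it on. Such windows were found for 39 of the 48 genes, 46 windows in all, and the 9 others could not be placed relative to a start.

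Promoter windows of 8 genes follow as RefSeq gives them for GRCm38.p6, the assembly of mm10, read 5′ to 3′ on the gene's own strand. They were picked to show what the antibody recovered at strong start-site peaks (Smarcal1, Baz1b, Dpf1, Ino80b), at the start of an H2A.Z exchanger (Srcap) and at a peak of H3.3K27M alone (Brd9), beside Smarcb1 and Smarcc1, which had no peak. In the first 6, capitals mark the 21 bases centred on the summit, that of H3.3WT or, for Brd9, of H3.3K27M. In Smarcb1 and Smarcc1 they mark a match to the NRF1 motif.
Smarcal1, chr1:72583001-72583300, plus strand: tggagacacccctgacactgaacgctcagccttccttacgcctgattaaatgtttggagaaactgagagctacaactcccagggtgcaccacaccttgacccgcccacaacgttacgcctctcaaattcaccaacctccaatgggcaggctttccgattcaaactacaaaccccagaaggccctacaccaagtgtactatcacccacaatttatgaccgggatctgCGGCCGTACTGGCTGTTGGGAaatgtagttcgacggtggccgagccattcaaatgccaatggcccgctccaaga
Baz1b, chr5:135187073-135187372, plus strand: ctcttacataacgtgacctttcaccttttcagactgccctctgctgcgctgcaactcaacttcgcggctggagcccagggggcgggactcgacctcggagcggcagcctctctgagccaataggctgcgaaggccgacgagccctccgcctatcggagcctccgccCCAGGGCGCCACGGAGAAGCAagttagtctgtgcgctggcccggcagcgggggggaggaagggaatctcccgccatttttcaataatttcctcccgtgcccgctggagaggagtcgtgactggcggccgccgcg
Dpf1, chr7:29303755-29304054, plus strand: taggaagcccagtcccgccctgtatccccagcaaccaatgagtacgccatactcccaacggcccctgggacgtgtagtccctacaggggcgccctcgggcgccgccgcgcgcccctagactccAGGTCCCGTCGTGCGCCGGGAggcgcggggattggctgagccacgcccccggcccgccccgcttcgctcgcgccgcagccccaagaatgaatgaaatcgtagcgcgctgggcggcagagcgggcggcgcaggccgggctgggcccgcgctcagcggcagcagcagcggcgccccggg
Srcap, chr7:127511733-127512032, plus strand: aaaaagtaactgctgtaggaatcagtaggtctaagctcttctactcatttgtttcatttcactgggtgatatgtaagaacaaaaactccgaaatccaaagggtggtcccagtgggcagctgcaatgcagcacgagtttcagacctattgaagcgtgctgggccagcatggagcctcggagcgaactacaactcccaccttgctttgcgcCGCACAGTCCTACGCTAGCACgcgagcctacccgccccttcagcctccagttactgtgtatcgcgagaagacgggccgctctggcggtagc
Ino80b, chr6:83125070-83125369, minus strand: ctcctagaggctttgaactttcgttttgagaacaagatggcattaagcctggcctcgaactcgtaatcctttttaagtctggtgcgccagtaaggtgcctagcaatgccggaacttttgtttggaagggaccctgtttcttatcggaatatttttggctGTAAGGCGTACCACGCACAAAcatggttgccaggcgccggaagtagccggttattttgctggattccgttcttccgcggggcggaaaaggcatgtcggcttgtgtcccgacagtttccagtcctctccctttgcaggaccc
Brd9, chr13:73937561-73937860, plus strand: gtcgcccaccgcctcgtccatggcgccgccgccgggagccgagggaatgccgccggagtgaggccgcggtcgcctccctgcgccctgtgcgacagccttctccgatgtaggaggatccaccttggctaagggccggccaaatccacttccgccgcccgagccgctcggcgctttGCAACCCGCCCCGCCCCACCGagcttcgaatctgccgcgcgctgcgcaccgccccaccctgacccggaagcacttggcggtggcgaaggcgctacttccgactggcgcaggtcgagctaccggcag
Smarcb1, chr10:75921565-75921864, minus strand: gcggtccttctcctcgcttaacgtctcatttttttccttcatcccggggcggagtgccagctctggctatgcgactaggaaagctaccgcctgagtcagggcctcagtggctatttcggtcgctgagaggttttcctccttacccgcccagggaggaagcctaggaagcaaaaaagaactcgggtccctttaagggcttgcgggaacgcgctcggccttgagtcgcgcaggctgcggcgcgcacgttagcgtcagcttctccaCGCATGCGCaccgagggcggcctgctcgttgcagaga
Smarcc1, chr9:110131774-110132073, plus strand: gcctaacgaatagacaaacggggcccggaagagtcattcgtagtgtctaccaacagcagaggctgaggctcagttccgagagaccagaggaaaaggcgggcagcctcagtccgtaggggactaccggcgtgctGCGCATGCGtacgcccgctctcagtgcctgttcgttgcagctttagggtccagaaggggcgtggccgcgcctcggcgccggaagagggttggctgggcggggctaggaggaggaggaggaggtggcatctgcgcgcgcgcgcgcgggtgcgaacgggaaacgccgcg

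The windows of remodeller genes were rich in CpG, with a median of 28 CpG and 65.7% GC over 46 windows against 13 CpG and 56.3% GC over 21262 windows of protein-coding genes. The Smarcal1 window, under the strongest peak, was among the poorer ones, with 13 CpG and 53.0% GC. Short motifs were searched on both strands, and a match is a description of letters only. CCGGAAGT, the ETS form, was in 1 of the 46 windows, that of Ino80b (2.17%, against 5.15% of all windows), where it began 55 bases before the start and 26 bp from the H3.3WT summit. GCGCATGCG, the NRF1 form, was in 2 windows (4.35% against 2.35%), those of the unmarked genes Smarcb1 and Smarcc1. AAGATGGCG, the YY1 form, was in 2 windows (4.35% against 1.83%), of Bptf and Smarcd1. ACTACANTT, a ZNF143 form, was in 1 window (2.17% against 1.80%), that of Smarcal1, where it began 4 bases before the start and 10 bp from the H3.3WT summit. The GC box GGGCGGGG was in 16 windows (34.8% against 23.6%) and CCAAT in 16 (34.8% against 38.2%). Of the E-box forms, CACGTG was in 3 windows (6.52% against 7.84%) and CACCTG, the letters bound by E-proteins that pair with MTG corepressors, in 5 (10.9% against 19.7%). The RUNX form TGTGGT was in 6 (6 of 46, against 3183 of 21262), and the CRE form TGACGTCA in none (0 of 46, against 2.23%).

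Peaks marked 35 of the 48 remodeller genes in H3.3WT (72.9%, 95% Wilson interval 59.0 to 83.4%) and 37 in H3.3K27M (77.1%, 63.5 to 86.7%). Among all protein-coding genes the same rule marked 29.2% and 33.8%. Both lists marked 31 remodeller genes (64.6%), where 25.8% of all genes were marked in both. The H3.3WT list alone marked 4 (8.33%, against 3.45% of all genes) and the H3.3K27M list alone marked 6 (12.5%, against 8.02%). Neither list marked 7. Silent gene families are part of all protein-coding genes, and no expression data were used here. These shares therefore do not separate remodeller genes from active genes in general. The intervals cover counting error over genes only.

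Remodeller genes are long, with a median of 50.4 kb against 17.2 kb for all protein-coding genes, and a long gene has more room for an internal peak. Counted only within 1 kb of either annotated gene end, 29 remodeller genes were marked in H3.3WT (60.4%) and 30 in H3.3K27M (62.5%), against 24.8% and 28.6% of all genes. Around listed start sites, 24 of the 39 genes with one were marked in H3.3WT (61.5%) and 28 in H3.3K27M (71.8%), against 26.7% and 30.9% of all protein-coding genes with a listed start. The 7 unmarked genes ranged from 16.4 kb (Dpf2) to 274 kb (Dpf3), with a median of 67.6 kb.

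**Figure D1:**
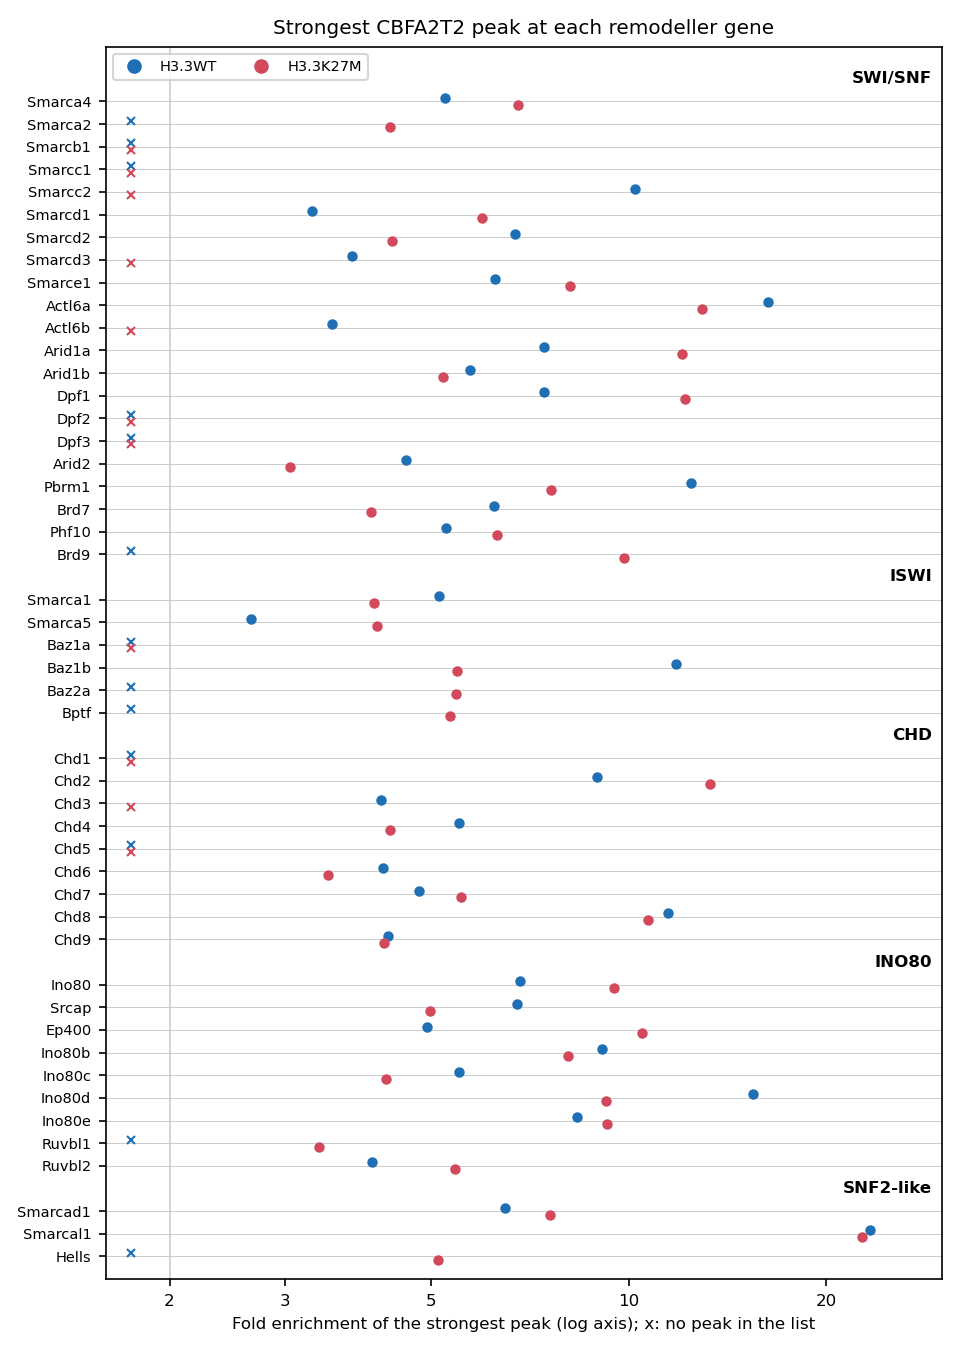
Fold enrichment of the strongest CBFA2T2 peak at each of the 48 remodeller genes on a log axis, 1 point per list, grouped by family, with a cross for a gene without a peak in that list. Smarcal1 stands highest in both lists, at 23.3 and 22.6 fold, and 7 genes have crosses in both.

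The SWI/SNF family had 15 of 21 genes marked in H3.3WT and 14 in H3.3K27M, with 12 in both. Its ATPase genes differed. Smarca4, the main ATPase gene of dividing progenitors, had a start-site peak (chromosome 9, 21615800 to 21616836 in H3.3WT) whose fold was 5.26 in H3.3WT, below the 6.79 of H3.3K27M. Smarca2, which codes for the alternative ATPase, had no peak in H3.3WT and a weak one of 4.33 fold in H3.3K27M, 142623 bp after its start. No peak of either list lay within 1 kb of the Smarca2 start.

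Among the core subunits, which hold the complex together, 5 of 7 genes were marked in H3.3WT and 3 in H3.3K27M. Smarcd1 had a start-site peak of 3.297 and 5.99 fold, in the order H3.3WT and H3.3K27M that is kept from here on. Smarce1, which codes for the HMG-box subunit, had a peak of 6.27 and 8.15 fold at a gene end. Smarcd2 had 6.71 and 4.37 fold, 241 and 266 bp beyond the annotated gene and 5607 and 5632 bp before its listed start, with an end of Tcam1 also within 1 kb. Smarcc2 and Smarcd3 were marked in H3.3WT alone. Smarcb1, which codes for the subunit lost in rhabdoid tumours, and Smarcc1, a scaffold gene, were marked in neither list. The actin-like pair split as well. Actl6a, expressed in progenitors, had the second strongest peak of all members in H3.3WT, at 16.3 and 12.9 fold, 361 and 338 bp after its start (chromosome 3, 32708546 to 32709266). Actl6b, its neuronal counterpart, had a weak peak of 3.54 fold at its start in H3.3WT, with a −log10 q of 2.16, and none in H3.3K27M.

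Of the subunits that define canonical BAF, 3 of 5 genes were marked in each list. Arid1a, which codes for a DNA-binding subunit often mutated in cancer, had a peak at each of its 2 listed starts. The one at the downstream start (chromosome 4, 133753966 to 133754661 in H3.3WT) had 7.43 and 12.1 fold. The one at the upstream start had 4.34 and 6.79 fold, with summits 610 bp apart. A further peak of 4.35 fold in H3.3K27M lay 1289 bp after the downstream start. Arid1b, its paralogue, had a weaker start-site peak of 5.73 and 3.09 fold, and H3.3K27M added one of 5.22 fold 329610 bp into the gene. Dpf1, a gene for the PHD-finger subunit of neuronal BAF, had 3 peaks in each list. The one at its start had 7.44 and 12.2 fold, and one 3888 bp further on in H3.3WT had 5.02 and 7.03 fold. Its remaining H3.3WT peak, of 4.00 fold, lay 1480 bp after the start, and its remaining H3.3K27M peak, of 3.67 fold, lay at the far end of the gene. Dpf2, the widely expressed paralogue, and Dpf3 had no peak within 50 kb in either list.

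The PBAF genes were marked without exception, 4 of 4 in both lists. Pbrm1, which codes for the subunit with several bromodomains, had the strongest of these peaks, at 12.4 and 7.62 fold (chromosome 14, 31018763 to 31019399 in H3.3WT). Its summit lay 29 bp before the start of Pbrm1 in H3.3WT and 97 bp after it in H3.3K27M. Gnl3, the nucleostemin gene, starts within 22 and 104 bp of the same summits, so the peak cannot be given to 1 of the pair. Brd7 had 6.23 and 4.05 fold and Phf10 5.28 and 6.30 fold, both at their starts. Arid2 had a weak peak of 4.59 and 3.05 fold that lay 785 and 685 bp outside the gene, with an end of the predicted gene Gm38469 also within 1 kb. Brd9, which codes for the bromodomain subunit of non-canonical BAF, was marked in H3.3K27M alone.

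In the ISWI family, 3 of 6 genes were marked in H3.3WT and 5 in H3.3K27M. Weak peaks marked both ATPase genes. Smarca5, for the main ISWI ATPase, had 2.67 fold (−log10 q of 1.48, close to the calling threshold) and 4.14 fold, with summits 469 bp apart around its start. Smarca1, for the other ISWI ATPase, had 5.14 and 4.10 fold, 666 and 473 bp after its start. Baz1b, which codes for the partner of SMARCA5 in the WICH complex, had the strongest peak of the family, at 11.8 and 5.47 fold. Bptf, the large subunit of NURF, and Baz2a, the partner of SMARCA5 in the nucleolar complex NoRC, were marked in H3.3K27M alone. Baz1a, the ACF subunit, was unmarked, with the nearest summits 30009 and 30189 bp from the gene.

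The CHD family had 7 of 9 genes marked in H3.3WT and 6 in H3.3K27M, with no gene marked in H3.3K27M alone. Chd8, whose product represses Wnt targets and which is a known autism gene, carried 3 shared peaks. The start-site peak had 7.11 and 8.82 fold, and a peak 13215 bp after the start in H3.3WT had 6.14 and 9.62 fold. The third, at 11.5 and 10.7 fold, lay 891 and 846 bp beyond the far end of Chd8, just inside the 1 kb limit, and 21 and 66 bp before the start of its neighbour Supt16, which codes for a subunit of the histone chaperone FACT. Chd2 had a single internal peak of 8.95 and 13.3 fold (chromosome 7, 73537505 to 73538259 in H3.3WT), the second highest fold of all members in H3.3K27M, 3921 and 3818 bp from its nearer end. Chd7, the CHARGE syndrome gene, had an internal peak of 4.80 and 5.55 fold, 1161 and 1204 bp from its nearer end. Chd9 was marked in both lists at different places, 25628 bp (4.30 fold) and 48418 bp (4.24 fold) after its first start, so its sites were not shared. Chd6 had 4.22 and 3.49 fold at its start. In the NuRD group, Chd4, the ATPase gene of most NuRD complexes, had a start-site peak of 5.52 and 4.33 fold. Chd3 was marked in H3.3WT alone, and the neuronal Chd5 in neither list, nor was Chd1.

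The INO80 family had the highest share of marked genes of the 4, with 8 of 9 genes on the H3.3WT list and 9 of 9 on the other. The ranking is uncertain, since it rests on 9 genes, and no test between families was run. The 95% Wilson intervals for H3.3WT, 56.5 to 98% for INO80 and 50 to 86.2% for SWI/SNF, cover counting error over genes only. In the second list described below, INO80 did not have the highest share. There 17 of 22 INO80 and TIP60 genes were marked in each list (77.3%). The ISWI genes had 4 and 5 of 5 (80 and 100%) and SWI/SNF 7 and 8 of 9 (77.8 and 88.9%). In H3.3WT these shares were close, and the sets are small. All 3 ATPase genes of the INO80 family had start-site peaks. Ino80 had 6.83 and 9.49 fold (chromosome 2, 119477229 to 119478305 in H3.3WT), with summits 153 bp before and 6 bp after its start. Srcap, for the enzyme that deposits H2A.Z, had 6.77 and 4.99 fold, 31 and 9 bp before its start. Ep400, the TIP60 complex ATPase gene, had 4.93 and 10.5 fold (chromosome 5, 110770135 to 110770765 in H3.3WT), with summits 1 bp apart. Among the other subunits, Ino80d had the highest fold, 15.5 and 9.22 at a gene end (chromosome 1, 63113817 to 63114595 in H3.3WT), which it shares with the antisense transcript gene Ino80dos. Ino80e had 8.33 and 9.28 fold, nearer to the start of Hirip3 (90 and 77 bp) than to its own (419 and 432 bp). Ino80b had 9.11 and 8.08 fold at its start, and in each list a weak unshared peak near Wbp1, at 3.32 and 3.68 fold. Ino80c had 5.52 and 4.27 fold at a gene end. Ruvbl2, for one of the AAA+ ATPases common to INO80, SRCAP and TIP60, had 4.07 and 5.43 fold at its start, with an end of Gys1 within 1 kb. Its partner Ruvbl1 had 3.38 fold in H3.3K27M alone.

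All 3 SNF2-like genes were marked in H3.3K27M and 2 of them in H3.3WT. Smarcal1, which codes for an annealing helicase that restarts stalled replication forks, had the strongest peak of all 48 genes on either list. In H3.3WT it reached 23.3 fold (−log10 q of 109), and in H3.3K27M 22.6 fold (−log10 q of 124). These folds exceeded those of 97.2% and 97.5% of the peaks of their lists. The peak lies 46542 bp inside the annotated gene in H3.3WT, but its summits stood only 14 and 11 bp before the listed start. Smarcad1, whose product helps to restore heterochromatin after replication, had 6.49 and 7.59 fold, 52 and 37 bp after its upstream start. Hells, a gene needed for normal DNA methylation, was marked in H3.3K27M alone.

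At remodeller genes with a listed start, most peaks sat near that start. The matching share over all peaks of the lists was not computed, so whether this is particular to remodeller genes was not tested. At Ino80e, Brd9 and, for H3.3WT, Pbrm1, the summit stood nearer to a neighbour's start. Of the 34 H3.3WT peaks at genes with a listed start, 25 had their summit within 1 kb of it, and so did 29 of the 41 H3.3K27M peaks. For the genes marked this way, the median distance from start to summit was 99.0 bp (H3.3WT) and 113.5 bp (H3.3K27M), against 83.0 and 88.0 bp over all protein-coding genes marked at a start. Within 250 bp of the start lay the nearest summit of 18 of the 24 genes in H3.3WT (75.0%, against 85.1% of all such genes) and of 22 of 28 in H3.3K27M (78.6%, against 83.9%). At Arid1a, Baz2a, Ino80, Ruvbl2 and Smarcal1 the summit of a start-site peak lay more than 1 kb from both annotated ends in at least 1 list, so that counting by gene ends alone missed that peak. At Ino80 this held for the H3.3K27M summit, 1004 bp from the nearer end. The plot of summits around start sites shows Actl6a, Arid1a and Dpf1 among the stronger peaks that stood off the start itself.

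**Figure D2:**
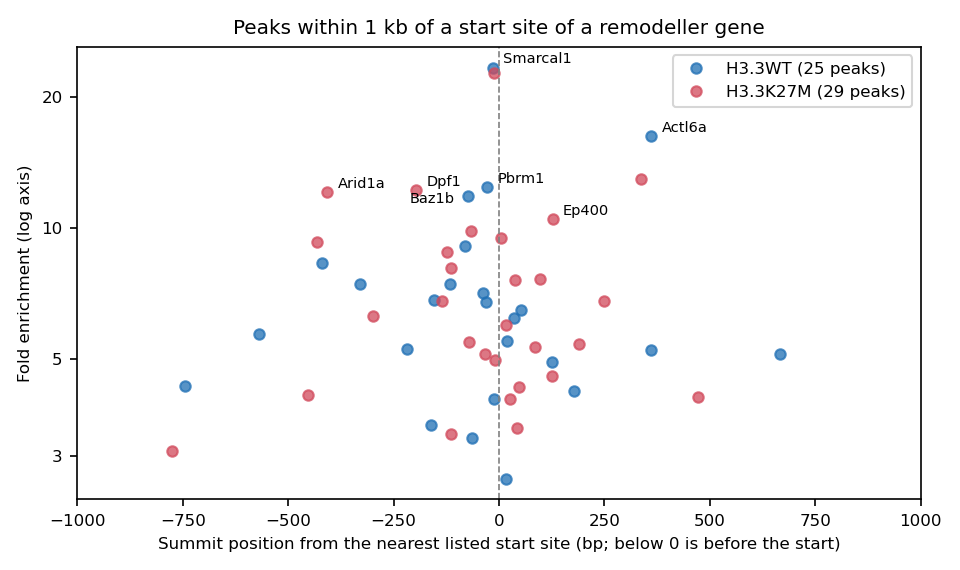
Fold enrichment (log axis) against the position of the summit from the nearest listed start site, in bp, for 25 H3.3WT and 29 H3.3K27M peaks within 1 kb of a start of a remodeller gene. Each point is 1 peak, and the points of Smarcal1 stand highest, 14 and 11 bp before the start.

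In height the peaks at remodeller genes were ordinary. The median fold was 5.73 over the 41 H3.3WT peaks and 5.47 over the 47 H3.3K27M peaks, against 6.21 and 5.63 over all peaks of the lists. Above the median of their list stood 19 of the 41 (46.3%) and 22 of the 47 (46.8%). Only Smarcal1, Actl6a and Ino80d reached the highest 10% of H3.3WT folds, and only Smarcal1 and Chd2 the highest 10% of H3.3K27M folds. The peaks were wider than average, with medians of 603 and 620 bp against 498 and 535 bp.

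Peaks of the lists were called shared when they overlapped by at least 1 bp. Of the H3.3WT peaks at remodeller genes, 34 of 41 were shared (82.9%, 95% Wilson interval 68.7 to 91.5%), against 79.4% of all H3.3WT peaks. Of the H3.3K27M peaks, 34 of 47 were shared (72.3%, 58.2 to 83.1%), against 66.3% of all H3.3K27M peaks. Both intervals cover counting error over peaks only. Shared remodeller peaks had a median fold of 6.25 and 6.91, and unshared ones of 4.00 and 4.44. Over all peaks of the lists the medians were 6.82 and 6.68 for shared peaks and 4.91 and 4.59 for unshared ones. The gap is thus general to both lists. The summits of a shared pair were a median of 61.5 bp apart, against 44.0 bp over all 5511 shared pairs.

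The folds of the shared pairs leaned to neither list. H3.3K27M had the higher fold at 18 of the 34 pairs (52.9%) and H3.3WT at 16, against 46.3% higher in H3.3K27M over all shared pairs. The median log2 ratio of H3.3K27M to H3.3WT fold was 0.18, against −0.05 over all pairs. These ratios compare 2 libraries of unknown depth and serve only to rank pairs. Ep400 stood at the upper edge, with a log2 ratio of 1.09 that exceeded 97.9% of all shared pairs, followed by Smarcd1 (0.86), Dpf1 (0.71) and Arid1a (0.70). Baz1b stood at the lower edge, with −1.11 at the 2.41 percentile, followed by Arid1b (−0.89), Ino80d (−0.75) and Pbrm1 (−0.71). These genes were picked as the extremes of 34 pairs, so their percentiles do not single them out. The ratios of the paralogues Arid1a and Arid1b had opposite signs, at the 91.5 and 5.95 percentiles of all shared pairs. That of Arid1b rests on a weak H3.3K27M peak of 3.09 fold, with a −log10 q of 2.06. Smarcal1 lay in the middle of all pairs, at −0.04.

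**Figure D3:**
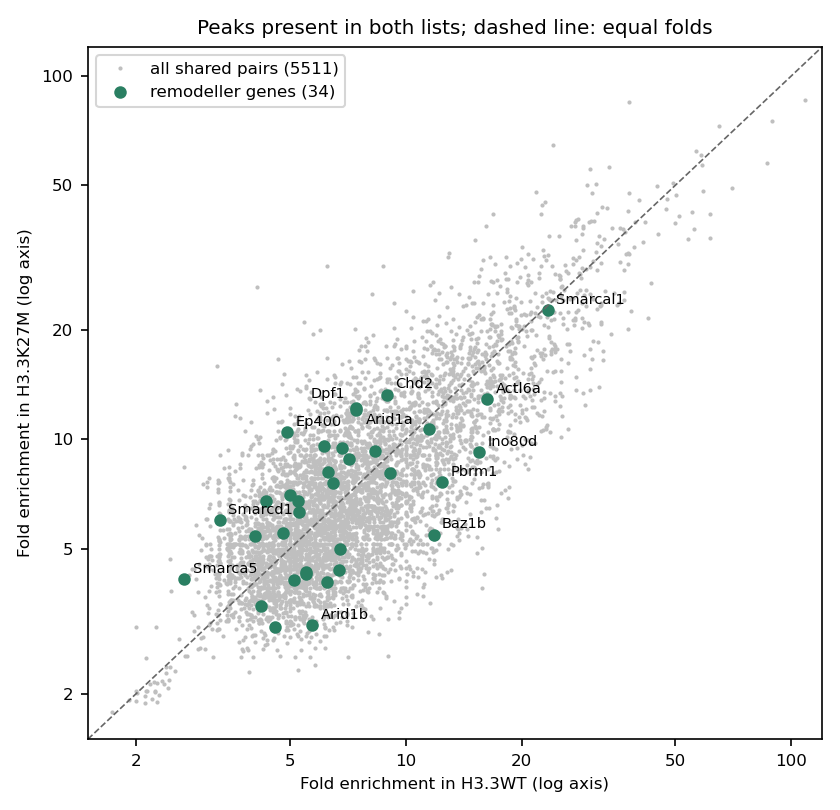
Fold enrichment in H3.3K27M against H3.3WT, both on log axes, for 5511 pairs of overlapping peaks (grey) and the 34 pairs at remodeller genes (green), with a dashed line at equal folds. The green points lie on both sides of the line, with Ep400 above it and Baz1b below it.

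Among the 6 genes marked in H3.3K27M alone, Brd9 had the strongest peak. It had 9.84 fold with a −log10 q of 17.6, higher in fold than 82.4% of H3.3K27M peaks (chromosome 13, 73937472 to 73938005). Its summit lay 66 bp before the start of Brd9 and 22 bp after that of Trip13, a gene of the spindle checkpoint, and the nearest H3.3WT peak was 270650 bp away. Bptf had 5.34 fold, 86 bp after its start (chromosome 11, 107130953 to 107132485). Hells had 5.13 fold, 32 bp before its start (chromosome 19, 38930806 to 38931206). Baz2a carried 3 peaks, of 4.44, 4.58 and 5.47 fold, the middle one 125 bp after its start. An end of Atp5b, an ATP synthase gene, lay within 1 kb of the first. Ruvbl1 and Smarca2 completed the group at 3.38 and 4.33 fold. In 5 of the 6 genes, all but Smarca2, a peak lay at a start site. The matching share over all genes marked in H3.3K27M alone was not computed, so this may be ordinary.

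The H3.3WT list alone marked Smarcc2, Chd3, Smarcd3 and Actl6b. Smarcc2, a scaffold gene of SWI/SNF, had the strongest peak, at 10.2 fold with a −log10 q of 14.7, at the far end of the gene, 30390 bp after its start (chromosome 10, 128489469 to 128489819). Chd3 had 4.20 fold at a gene end, Smarcd3 3.79 fold inside the gene and Actl6b 3.54 fold at its start. Beyond the 1 kb limit, the nearest H3.3K27M summits lay 2556 bp from the Chd3 gene and 3457 bp from the Smarcc2 gene. From the H3.3WT peaks of these genes, the nearest H3.3K27M peaks were 26057 bp (Chd3) and 3906 bp (Smarcc2) away. A site close to the calling threshold can be listed for 1 library and missing from the other at similar enrichment, and whether these 10 genes differ between the genotypes was not tested.

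The map of peaks along Arid1a, Chd8, Dpf1 and Baz2a shows the genes with 3 peaks in a list. At Arid1a and Baz2a they clustered over the first part of the gene. At Chd8 they reached from the start to just beyond the far end in both lists. At Dpf1 the H3.3WT peaks lay from 117 bp before to 3888 bp after the start, while the third H3.3K27M peak lay at the far end.

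**Figure D4:**
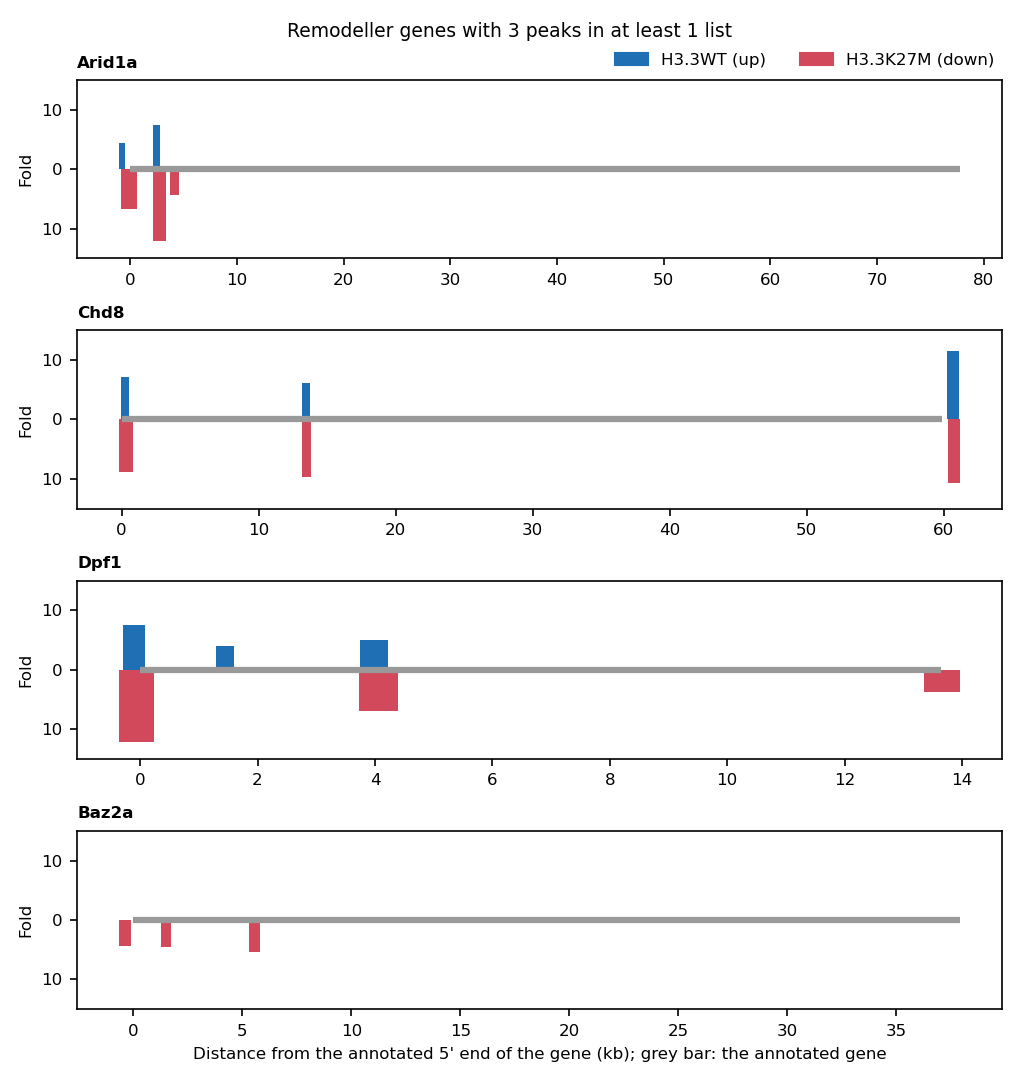
CBFA2T2 peaks along 4 remodeller genes, by distance in kb from the annotated 5′ end, with the height of a bar giving fold enrichment upward for H3.3WT and downward for H3.3K27M and a grey bar for the gene. Narrow peaks are drawn wider than they are so as to be visible, and Baz2a has bars on the H3.3K27M side alone.

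The 7 genes marked in neither list were Smarcb1, Smarcc1, Dpf2, Dpf3, Baz1a, Chd1 and Chd5. Smarcb1 came closest, with the nearest summits 3413 and 3532 bp from the gene. At Smarcc1 they were 14591 and 14645 bp away, at Chd5 12845 and 12866 bp. At Dpf3 they were 109568 and 109592 bp away. The lack of a peak says only that no site passed the authors' calling threshold, and expression of these genes was not measured in the data used here.

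A second list held 46 other subunits and relatives of the same complexes. Of these, 32 were marked in H3.3WT (69.6%) and 37 in H3.3K27M (80.4%), against 29.2% and 33.8% of all protein-coding genes. The shares are near those of the 48 genes above. Both sets of genes were chosen with earlier results of these data known, so the second is no independent check on the first. By family, 7 and 8 of 9 SWI/SNF genes were marked, 4 and 5 of 5 ISWI genes, 17 and 17 of 22 INO80 and TIP60 genes, and 4 and 7 of 9 SNF2-like genes, while Chd1l was not. Pole3, Tfpt and Ing3 exceeded the fold of Smarcal1 in both lists, and Morf4l1 did in H3.3K27M. Summit positions and neighbouring genes were not examined for the second list, so a peak may belong to a neighbour. Pole3, which codes for a histone-fold subunit of CHRAC and of DNA polymerase epsilon, had 35.5 and 34.5 fold. Ing3, a TIP60 complex gene, had 26.3 and 28.6 fold. Tfpt, an INO80 subunit gene, had 30.6 and 24.4 fold, and Morf4l1, for a chromodomain protein of TIP60, had 22.5 and 41.6 fold.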

How the data were processed

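CBFA2T2 ChIP-seq peak lists of 2 libraries, 1 per genotype, were used of 19 libraries in the series (11 ChIP and 8 input). The others were not analysed here. The submitters' processing notes name Trim Galore, MACS2 and mm10, without versions. For the aligner and the caller's options, nothing is given in the sources used here. Every list came from 1 ChIP library against input, per the deposited peak names, which write Z3q in place of CBFA2T2. The score column deposited by the authors equals 10 times −log10 q and was not used. The fold enrichment ratio and −log10 q were used as deposited by the authors, and −log10 p was left aside. The smallest −log10 q was 1.33 in H3.3WT and 1.31 in H3.3K27M, so weaker sites are missing. Depth is unknown. Coordinates count from 1.

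Gene spans and promoter windows came from RefSeq (GRCm38.p6). Summits were assigned with Python 3.11.15 and pandas 2.3.3, tested on made-up intervals with known answers. The 48 genes, their roles, the 46 other subunits and the motifs were chosen with earlier results of these data known. Named genes were all ATPases, the 5 highest folds per list, the 4 most extreme fold ratios each way and genes marked in 1 list, with the remaining members given by family. Of the other subunits the 3 highest per list were named. Protein-coding neighbours were named where an end lay within 1 kb of a summit at the 48 genes, and were not examined for the other subunits. Alternatives were a −log10 q minimum of 5, a minimum of 5 fold, lists cut to equal length, windows of 500 bp and 3 kb, any base of a peak, and 50% reciprocal overlap.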

Additional observations from a re-analysis of the deposited data

How the results depend on the processing

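Of 68 counts recomputed under 7 alternatives for 11 results, 60 stayed within 1.5 times the reported count and 8 did not. With peaks of at least 5 fold, remodeller genes marked in both lists fell to 17 (17.5% of all genes), those at a gene end in H3.3K27M to 18 (19.4%), their peaks to 27 (H3.3WT) and 29 (H3.3K27M), and shared ones to 19 in each. These falls follow from the construction, since weaker peaks are left out. The count of genes marked in H3.3WT alone went from 4 to 7 under that minimum (3.45 to 4.96% of all genes), with mostly different genes. Besides Smarcc2 they were Brd7, Smarcd2, Chd4, Ino80c, Smarca1 and Srcap, marked in both lists but with H3.3K27M peaks below 5 fold. Chd3, Smarcd3 and Actl6b dropped out, since their H3.3WT peaks lay below 5 fold. With the longer list cut to the length of the shorter (6920 peaks), 7 genes were marked in H3.3WT alone (4.93% of all genes) and 4 in H3.3K27M alone (5.36%), the reverse order of the reported 4 and 6 (3.45% and 8.02%), so neither list can be said to mark more remodeller genes by itself. Under all 6 alternatives that apply to it, the number of marked remodeller genes was 24 to 35 for H3.3WT, where 22.4 to 30.9% of all genes were marked, and 25 to 38 for H3.3K27M, where 22.8 to 35.5% were. No paired analysis was possible because each genotype has 1 library. The unknown depth limits every comparison of the 2 lists, and a site near the calling threshold can fall on either side of it.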

Other observations

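The window of Smarcal1, under the strongest remodeller peak, and that of Srcap hold the letters CTACAACTC, beginning 181 and 66 bases before the start. This other ZNF143 form, CTACAANTC on either strand, was chosen after these windows had been read, so its presence in them supports nothing. It was in 2 of 46 remodeller windows (4.35%) and in 399 of 21262 windows of protein-coding genes (1.88%). Of the windows with it, 76.9% had a CBFA2T2 summit within 1 kb of the start in H3.3WT and 78.9% in H3.3K27M, against 24.6% and 28.6% of windows without it. The form was read off windows under peaks of these same lists, and such shares were not computed for the other motifs. Whether the difference is particular to this form was therefore not tested. The other 37 remodeller genes with a window had no match. Binding of ZNF143 was not measured in the data used here.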
